A study of Homo sapiens with 2 samples.

Results

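The genes OPA1, MFN1, MFN2, DNM1L and MFF set the shape of the mitochondrial network, and their splicing was examined in HEK293T, an established human embryonic kidney line. Every entry under these 5 gene symbols was taken from the 5 deposited tables of splicing events, which gave 140 of 159490 events: 101 of 113456 skipped-exon events, 37 of 39869 mutually exclusive exon events, 2 of 2868 alternative 3' splice site events, 0 of 2620 alternative 5' splice site events and 0 of 677 retained introns. The skipped-exon events covered 61 of 67154 distinct exons. Polyadenylated RNA was sequenced from 1 library of untreated cells (Ctrl) and 1 library of cells given 300 µg/mL of amiloride, a potassium-sparing diuretic, for 6 h. Both libraries come from the same line, with no other agent or allele named.

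Mitochondria fuse and divide continuously. The mitofusins MFN1 and MFN2 are GTPases of the outer membrane that join neighbouring mitochondria, and OPA1 is the dynamin-like GTPase that then fuses the inner membranes and shapes the cristae. Division is driven by DNM1L (DRP1), a cytosolic dynamin-like GTPase that is recruited to the outer membrane by receptors such as MFF. OPA1, DNM1L and MFF are all known for exons that are spliced in or out in different tissues.

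Splicing in the libraries had been compared by the authors with rMATS, a program that weighs reads showing an exon as included against reads showing it as skipped. Each event carries an FDR and an inclusion level difference, a number between -1 and 1. It is positive where inclusion was higher in library number 1 of the table than in library number 2, here called the first and the second numbered library. The tables do not say which numbered library received amiloride, so the sign cannot be turned into a rise or fall after treatment, and no level or read number is given per library. Since each condition was sequenced once, no replicate error exists, and a call tells these libraries apart, not the conditions. An event was called at an FDR under 0.1, and an exon was called when any of its events was. All FDR values and differences below are the authors' deposited values.

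Several exons on which the results turn are shown from the GRCh37 reference, 5' to 3' on the plus strand that all 5 genes occupy. Capitals mark the exon, and lower case marks the last 20 bases of the intron before it and the first 6 bases of the intron after it. Coordinates are those of the exon. OPA1 exons 12 and 13 and DNM1L exons 15 and 16 are shown because each pair is skipped by a shared junction, OPA1 exon 7, MFF exon 7 and the MFF exon of 75 bases for their 3' splice sites, and the DNM1L exon of 39 bases for its 5' splice site.
OPA1 exon 7, chr3:193343881-193343991: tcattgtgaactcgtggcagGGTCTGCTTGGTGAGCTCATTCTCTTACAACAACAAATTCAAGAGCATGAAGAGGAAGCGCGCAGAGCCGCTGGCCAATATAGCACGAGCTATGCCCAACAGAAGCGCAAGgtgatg
OPA1 exon 12, chr3:193360554-193360634: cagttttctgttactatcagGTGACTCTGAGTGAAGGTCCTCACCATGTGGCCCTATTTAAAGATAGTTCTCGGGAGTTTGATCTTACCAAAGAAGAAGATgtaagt
OPA1 exon 13, chr3:193360764-193360838: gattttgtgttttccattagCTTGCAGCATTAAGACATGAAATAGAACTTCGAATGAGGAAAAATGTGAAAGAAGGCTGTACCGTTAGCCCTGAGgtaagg
DNM1L exon of 39 bases, chr12:32858759-32858797: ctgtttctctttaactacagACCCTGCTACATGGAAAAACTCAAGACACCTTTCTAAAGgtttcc
DNM1L exon 15, chr12:32890799-32890876: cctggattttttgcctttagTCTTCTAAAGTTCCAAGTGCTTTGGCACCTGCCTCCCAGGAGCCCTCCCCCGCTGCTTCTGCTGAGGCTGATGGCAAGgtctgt
DNM1L exon 16, chr12:32891198-32891230: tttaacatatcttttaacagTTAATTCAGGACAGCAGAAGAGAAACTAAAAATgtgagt
MFF exon of 75 bases, chr2:228207461-228207535: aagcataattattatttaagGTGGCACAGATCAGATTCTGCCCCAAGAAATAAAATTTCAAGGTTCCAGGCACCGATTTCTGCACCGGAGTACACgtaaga
MFF exon 7, chr2:228217230-228217289: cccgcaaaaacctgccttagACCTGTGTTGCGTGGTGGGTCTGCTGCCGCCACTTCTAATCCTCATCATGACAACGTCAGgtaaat

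Of the 101 skipped-exon events of the 5 genes, 35 were called (34.7%), against 27.5% of all events in the table. All 35 called events had a positive difference, with more inclusion in the first numbered library, and such calls made up 26.4% of all events in the table. Positive differences also made up 96.0% of the called events of the whole table, so the shared direction is not particular to these genes. By exon, 25 of 61 were called (41.0%), against 35.8% of all exons. The called differences ran from 0.010 to 0.396 with a median of 0.096, and the median size over all called events of the table was 0.108. The 35 called events rested on 28 distinct skipping junctions, so they are not independent of one another.

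**Figure D1:**
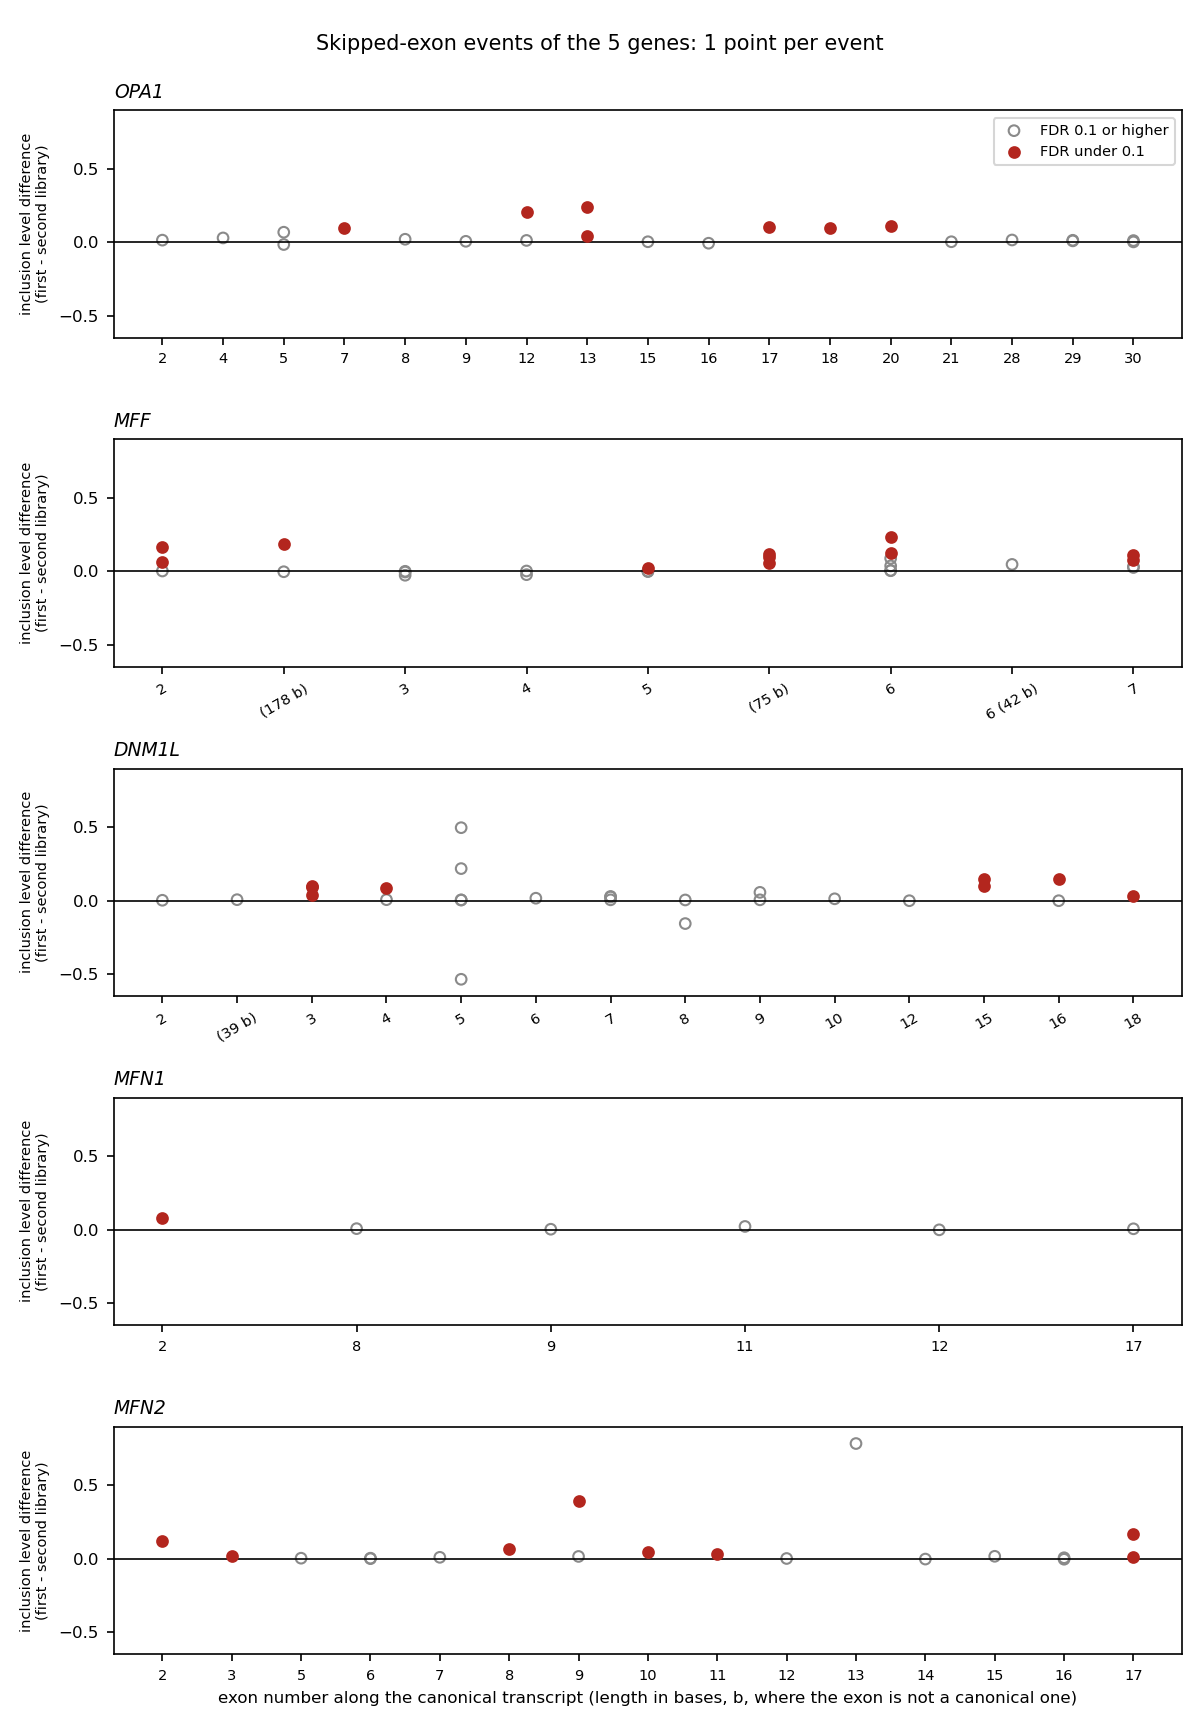
Inclusion level difference (first minus second library) of each of the 101 skipped-exon events, by exon number along the canonical transcript of each gene, with filled points for an FDR under 0.1. All 35 filled points lie above 0, and the points farthest from 0, such as 0.786 for MFN2 exon 13 and -0.537 for DNM1L exon 5, are open.

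OPA1, the inner membrane fusion GTPase, lies on chromosome 3 from 193310997 to 193415600, and its canonical transcript OPA1-202 has 31 exons. It had 7 called events of 22 and 6 called exons of 17 (35.3%), against 35.8% of all listed exons. The largest differences belonged to a pair of neighbouring coding exons in the part of the gene that encodes the GTPase domain. Exon 12 (81 bases) had a difference of 0.204 (FDR 8.7e-13) and exon 13 (75 bases) a difference of 0.241 (FDR 1.3e-12). Both values use the same skipping junction, from exon 11 to exon 14, which is annotated and leaves out 156 bases, a multiple of 3. Exon 12 is in all 11 annotated coding transcripts that span it, so no coding transcript holds this junction. When each exon was instead measured by the junction that skips it alone, the differences were smaller. Exon 13 alone gave 0.044 (FDR 0.0014), and exon 12 alone gave 0.013 and was not called (FDR 0.598). The event that sets exons 12 and 13 against each other as alternatives gave 0.004 and was not called (FDR 0.999).

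A second stretch of OPA1 with called exons lay further downstream. Exon 17 (73 bases, 193363342 to 193363414) had a difference of 0.105 (FDR 1.0e-08), and exon 18 (73 bases, 193363517 to 193363589) one of 0.095 (FDR 0.0020). Exon 20 (65 bases, 193365859 to 193365923) had a difference of 0.111 (FDR 1.3e-09). None of these 3 exons is left out of an annotated coding transcript, and none of the 3 lengths is a multiple of 3. The junctions that skip exon 17 alone and exon 20 alone are annotated, and the junction that skips exons 17 and 18 together is not. Exon 18 had no event that skips it alone, and its event counts the junction from exon 16 to exon 18 as inclusion. That junction is the one that skips exon 17, so the calls of exons 17 and 18 are not independent. Exons 15 and 16, upstream of these, and exon 21, downstream of them, had differences between -0.006 and 0.004 and were not called.

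Of the 3 exons for which OPA1 splicing is best known, 1 was called. Exon 7 of the canonical transcript, which the literature calls 5b and which encodes a site of proteolytic cleavage, had a difference of 0.096 (FDR 0.0212). It is 111 bases long, and 4 annotated coding transcripts include it while 6 leave it out. Exon 5, called 4b in the literature, had a difference of 0.069 without being called (FDR 0.865), and it is left out of 7 of 11 coding transcripts. Exon 4 had a difference of 0.030, also not called (FDR 0.280). An event that misses the threshold does not show that the exon was spliced alike in both libraries, since the reads behind it were not used here.

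The mitofusins, which act at the outer membrane, differed in how many of their exons were listed and called. MFN1, on chromosome 3 from 179065497 to 179112724, had 6 listed exons, each with 1 event. Of these 1 was called (16.7%), against 25.3% of all listed exons with exactly 1 event. The called one was exon 2 (119 bases, 179066633 to 179066751), which holds the start of the coding sequence, with a difference of 0.081 (FDR 1.5e-06). The other 5 MFN1 exons had differences between -0.001 and 0.022. MFN2, on chromosome 1 from 12040501 to 12073565, had 7 called exons of 15 (46.7%), against 35.8% of all listed exons. Of its 19 events 8 were called (42.1%), against 27.5% of all events. The difference between MFN1 and MFN2 was not tested.

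MFN2 exon 9 (154 bases), which encodes part of the GTPase domain, had the largest called difference of the 5 genes, at 0.396 with an FDR listed as 0. That event uses a junction from exon 6 to exon 12, which is not annotated and leaves out 561 bases, a multiple of 3. A different event of the same exon, with exon 8 upstream, gave 0.016 and was not called (FDR 0.432). The neighbours of exon 9 had smaller called differences: 0.066 for exon 8 (FDR 4.4e-07), 0.046 for exon 10 (FDR 0.00042) and 0.035 for exon 11 (FDR 3.3e-07). Exons 8 to 11 thus formed a run of 4 called exons, although the values of exons 9, 10 and 11 come from junctions that all end at exon 12. Only the junction of exon 11 skips its exon alone. The junction of exon 8 runs from exon 6 to exon 9, and that of exon 10 from exon 9 to exon 12. Both also count as inclusion of exon 9 in its called event, so these calls are not independent. Exon 7, also skipped from exon 6 to exon 9, was not called in its own event (0.010).

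MFN2 exon 17 (197 bases, 12067110 to 12067306), which encodes part of the membrane anchor, had a difference of 0.169 with an FDR listed as 0 when it was skipped alone. Skipped together with exon 16 it gave 0.010, the called event with the highest FDR among the 5 genes (0.0767). Exon 2 (145 bases, 12042027 to 12042171) lies in the 5' UTR and had a difference of 0.121 (FDR 2.3e-15). Exon 3 (179 bases), which holds the start of the coding sequence, had one of 0.019 (FDR 0.0217). Exon 13 had the largest difference of any listed event of these genes, 0.786, but with an FDR of 0.369 it was not called. Exon 15 is the only one of the coding MFN2 exons listed whose intron opens with GC in place of GT (CAGgcaagc, with the exon in capitals). It was not called (0.017, FDR 1).

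DNM1L, the fission GTPase, lies on chromosome 12 from 32832235 to 32898584, and its canonical transcript DNM1L-219 has 20 exons. It had 8 called events of 27 and 5 called exons of 14 (35.7%), against 35.8% of all listed exons. Exons 15 (78 bases) and 16 (33 bases) encode the alternative stretch of the variable domain, which lies between the stalk regions of the protein. They had differences of 0.146 (FDR 2.1e-11) and 0.149 (FDR 9.2e-08), both measured against the annotated junction from exon 14 to exon 17, which leaves out 111 bases. Exon 15 was also called when skipped alone (0.096, FDR 0.0155). Exon 16 skipped alone gave -0.001 (FDR 1). Among annotated coding transcripts, 5 of 15 leave out exon 15 and 8 of 15 leave out exon 16.

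Near the 5' end of DNM1L, exon 3 (47 bases, 32860301 to 32860347) was called in all 3 of its events, with differences of 0.098 (FDR 4.9e-06), 0.095 (FDR 1.3e-05) and 0.035 (FDR 0.0719). Their skipping junctions run from exon 2 to exons 5, 7 and 8 in that order, so none skips exon 3 alone. Only the junction to exon 7 is annotated. All 3 count the same reads on exon 3 as inclusion, so they are not independent. Exon 4 (72 bases, 32861087 to 32861158) had a difference of 0.088 (FDR 7.6e-13) when skipped alone. Its other event, with exon 8 downstream, gave 0.006 and was not called (FDR 0.985). Exon 18 (110 bases, 32893343 to 32893452) had a smaller one of 0.029 (FDR 0.00038). The exon of 39 bases between exons 2 and 3, an alternative exon in the stretch for the GTPase domain that 6 of 17 coding transcripts include, gave 0.006 (FDR 1). Exon 5 had events of opposite sign, 0.497 (FDR 0.121) and -0.537 (FDR 0.124), and neither was called. Exon 6, left out of 2 of 16 coding transcripts, gave 0.016 (FDR 0.169).

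MFF, the receptor that brings DNM1L to mitochondria, lies on chromosome 2 from 228189967 to 228222549, and its canonical transcript MFF-201 has 9 exons. It had the highest share of called exons of the 5 genes, 6 of 9 (66.7%), with 11 called events of 27. Of the 9 exons, 8 had more than 1 event, and among all listed exons 51.4% of those with more than 1 event were called, against 25.3% of exons with exactly 1. In its alternatively spliced middle, 3 exons share the annotated junction from exon 5 to exon 8. The exon of 75 bases, which the canonical transcript lacks, had a difference of 0.1 (FDR 4.6e-08) and was called in all 3 of its events. Exon 6 (159 bases, 228211942 to 228212100) had a difference of 0.125 (FDR 7.4e-11), and exon 7 (60 bases) one of 0.115 (FDR 1.2e-07). A further called event of exon 6, against a junction from exon 4 to exon 8 that is not annotated, gave 0.236 (FDR 0.00057), the largest called difference in MFF. The lengths of the exon of 75 bases, exon 6 and exon 7 are all multiples of 3. Exon 6 skipped alone gave 0.038 (FDR 0.217) and exon 7 skipped alone gave 0.027 (FDR 0.221), so neither was called by its own junction.

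At the 5' end of MFF, exon 2 (112 bases, 228193394 to 228193505) lies in the 5' UTR and had a difference of 0.168 with an FDR listed as 0. An exon of 178 bases (228194322 to 228194499) that the canonical transcript lacks, and that is partly coding, had a difference of 0.184 (FDR 4.0e-08). Both values rest on the junction from exon 1 to exon 3. The same exon of 178 bases, measured between exons 2 and 3, gave -0.002 (FDR 1). Exon 5 (89 bases, 228205008 to 228205096) was called with a difference of 0.024 (FDR 0.0079), against the junction from exon 4 to exon 8, which is not annotated. Skipped alone exon 5 gave -0.001, and skipped together with exon 6 it gave 0.002, and neither event was called. Exon 3, left out of 4 of 17 coding transcripts, gave -0.026 (FDR 0.240), and the shorter form of exon 6, of 42 bases, gave 0.048 (FDR 0.531). Neither of the MFF alternative 3' splice site events was called: -0.038 (FDR 0.361) for exon 3 and 0.007 (FDR 0.846) for exon 6. Of all alternative 3' splice site events, 23.0% were called.

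**Figure D2:**
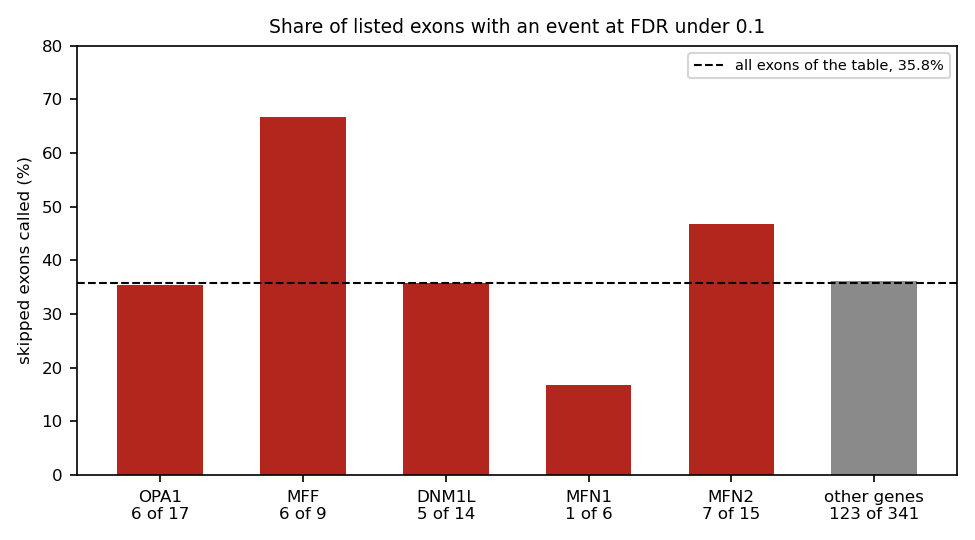
Share of listed skipped exons that were called, in percent, for each of the 5 genes and for the list of other mitochondrial shape genes, with the numbers of called and listed exons under each bar. The dashed line is the share over all exons of the table, 35.8%, and the bars run from 16.7% for MFN1 to 66.7% for MFF.

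Mutually exclusive exon events compare transcripts that hold one of a pair of exons, and the inclusion level is that of the first exon of the pair. Of the 37 events of these genes, 15 were called (40.5%), against 39.3% over the whole table. Of these 15, 3 were positive and 12 negative (80%), a negative value meaning relatively more of the second exon of the pair in the first numbered library. Over all called events of this kind 43.2% were negative. Several pairs share exons and junctions, so the 15 events are not independent. The sizes ran from 0.021 to 0.523 with a median of 0.074. Of the 15 pairs 8 held an exon that was also called as skipped, a count for which no whole-table share was made. Uncalled pairs held such exons too, among them OPA1 exons 12 and 13 and MFF exons 6 and 7.

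In OPA1 the pair of exons 14 and 16 gave -0.128 (FDR 3.0e-09), and the pair of exons 16 and 17 gave -0.159 (FDR 6.6e-08). In DNM1L exon 5 was the first exon of 4 called pairs, all negative. These ran from -0.034 with exon 9 (FDR 0.0014) to -0.523 with exon 8 (FDR 0.0012), and included -0.105 with exon 7 (FDR 1.9e-12). The pair of DNM1L exons 15 and 16 gave 0.074 (FDR 0.0406), relatively more of exon 15 in the first numbered library. In MFF the pair of exons 2 and 3 gave 0.084 (FDR 3.4e-09) and the pair of exons 3 and 4 gave -0.092 (FDR 0.00026). The MFF pairs of exon 5 with exon 6 or exon 7 gave values between -0.066 and -0.021. In MFN2 the pair of exons 6 and 7 gave -0.088 (FDR 6.2e-07), exons 16 and 17 gave -0.062 (FDR 3.3e-05) and exons 2 and 3 gave 0.054 (FDR 0.0021). The 1 event of MFN1, exons 8 and 9, gave -0.067 and was not called (FDR 0.125).

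**Figure D3:**
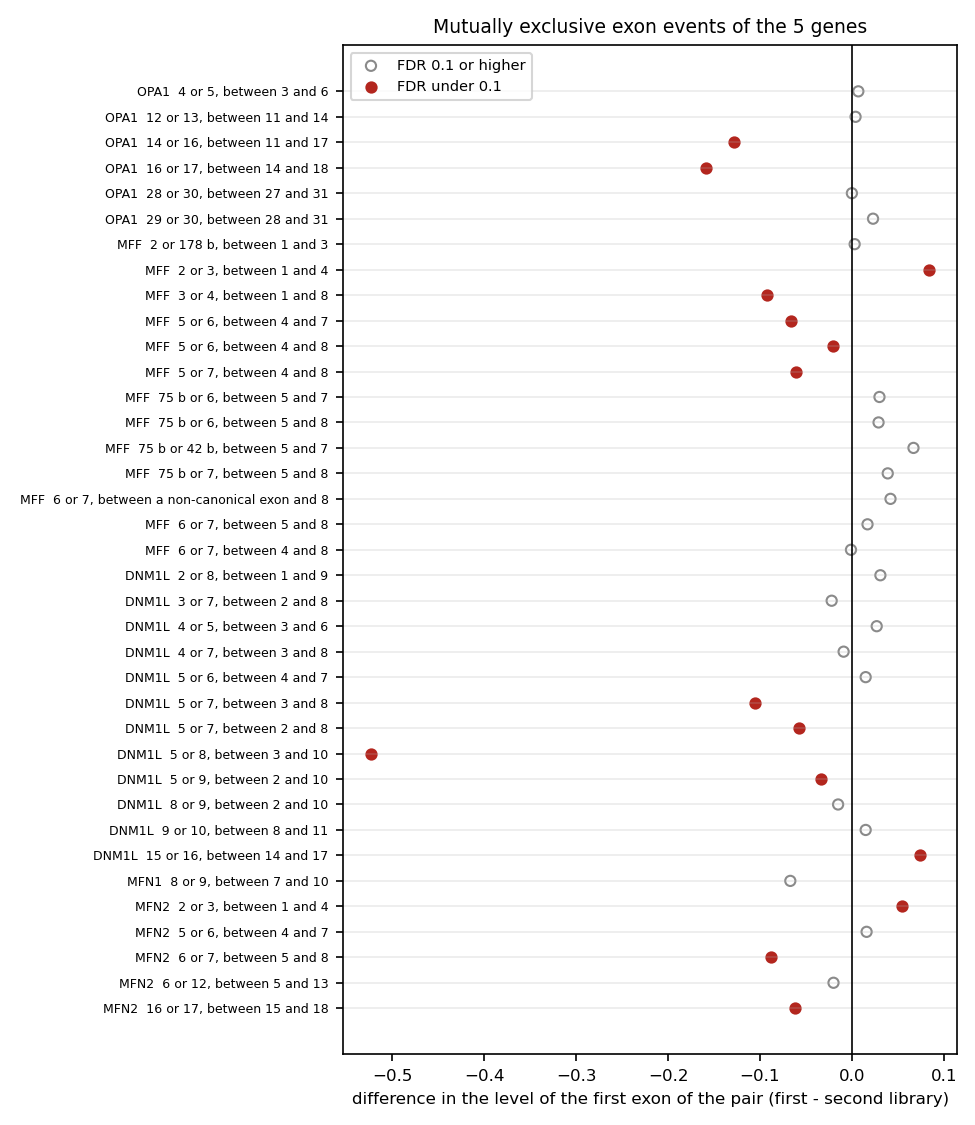
Difference in the level of the first exon of each pair (first minus second numbered library) for the 37 mutually exclusive exon events, with exon numbers along the canonical transcript or the length in bases (b) of an exon outside it. Filled points have an FDR under 0.1, and 12 of these 15 lie below 0, the lowest at -0.523 for DNM1L exons 5 and 8.

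The annotation and the called exons overlapped in part. For 25 of the 61 exons the skipping junction of at least 1 of their own listed events was annotated. Of these, 16 were called (64.0%), against 9 of the other 36 (25%). Over the whole table these shares were 48.2% and 31.4%. Annotated junctions outside an exon's own events were not counted. MFN2 exon 7 is thus among the 36, although the annotated junction from exon 6 to exon 9 skips it. Exons with an annotated skipping junction also tended to have more events, and an exon with more events has more chances to be called. Among exons with exactly 1 event the counts were 5 of 10 and 6 of 26, and over all listed exons 35.5% and 22.4%. By length, 10 of 25 exons with a length divisible by 3 were called (40.0%) and 15 of 36 others (41.7%), against 33.4% and 37.2% of all listed exons. Of the 35 called events, 16 left out a number of canonical bases divisible by 3, untranslated bases and an event that skips no canonical base included, and 19 did not. By gene these were 4 of 7 in OPA1, 0 of 1 in MFN1, 1 of 8 in MFN2, 5 of 8 in DNM1L and 6 of 11 in MFF. The MFN2 event from exon 6 to exon 12 used a junction that is not annotated, and the other 15 used annotated ones. For these counts of bases left out no whole-table share was made. Events that were not called also left out multiples of 3, such as OPA1 exon 12 skipped alone (81 bases).

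Splice site sequences were scored against all annotated sites, a higher log2 score meaning bases that are more frequent at such sites. The median 3' splice site (3'SS) score was 8.0 in the 25 called exons and 9.99 in the 36 others, and over the whole table it was 9.04 and 9.30. The median 5' splice site (5'SS) score was 8.39 in called and 7.69 in other exons, against 7.96 and 8.16 over the table. The called exons had a median length of 89 bases and the others of 116, against 102 and 123. These values are a description, and the ranges overlap widely.

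Low 3'SS scores occurred in several called exons, some of which are shown above because of these sites. MFF exon 7 scored -2.03, a score that only 0.341% of all exons fall below. For OPA1 exon 7 (3.22) that share was 4.39%, for MFF exon 6 (3.02) 3.95%, for the MFF exon of 75 bases (3.99) 6.57% and for MFN2 exon 10 (2.61) 3.16%. A 3'SS score within the lowest 10% of all exons was found in 5 of 25 called exons and 1 of 36 others, MFN1 exon 11 (4.67). Over the whole table the shares were 10.3% of called and 9.85% of other exons. A 5'SS score within the lowest 10% was found in 4 of 25 called exons and 3 of 36 others, against 10.7% and 9.59%. Both counts were made after the values were seen. A low score did not always come with a call: the DNM1L exon of 39 bases has a 5'SS score of 1.05, which 1.29% of exons fall below, and was not called. OPA1 exons 12 and 13, with the largest OPA1 differences, had 3'SS scores of 10.07 and 8.67 and 5'SS scores of 8.39 and 10.38.

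**Figure D4:**
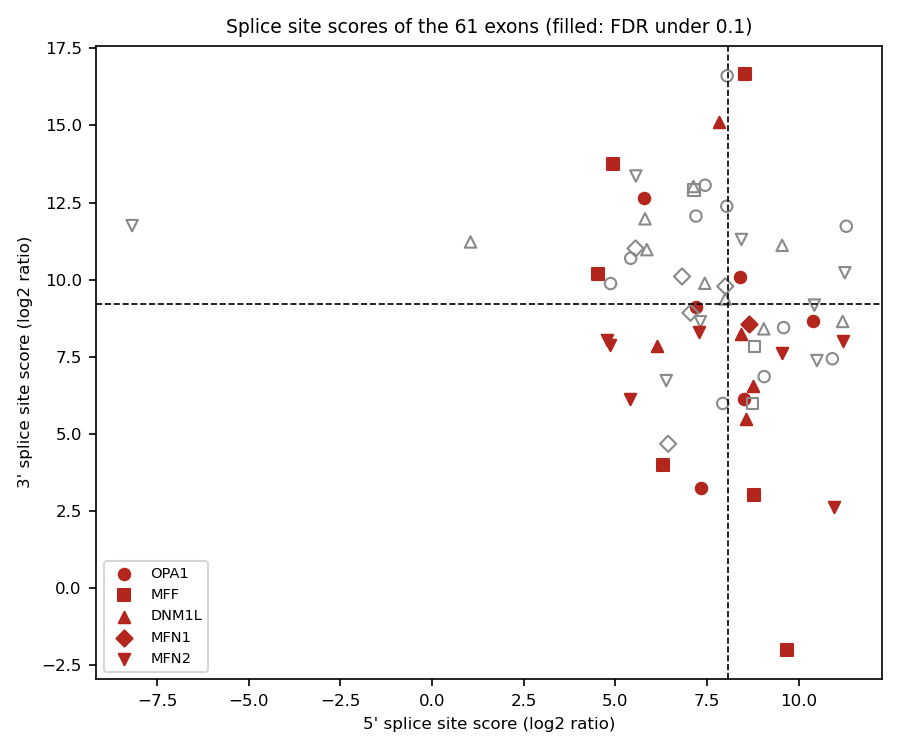
5'SS score against 3'SS score (log2 ratios) of the 61 exons, with a marker shape per gene, filled red for called exons and open grey for the others, and dashed lines at the medians of all exons in the table. MFF exon 7 is the lowest point at -2.03 on the 3'SS axis, and MFN2 exon 15, with its GC site, is the leftmost at -8.18.

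A list of 63 symbols of other genes of mitochondrial shape, transport and quality control was counted beside them. Skipped exons were listed for 53 of these symbols, and 123 of 341 exons were called (36.1%), against 35.8% of all listed exons. The called exons lay in 43 genes, a count for which no whole-table share was made. Of the 619 events of the listed genes 159 were called (25.7%), against 27.5% of all events. Of these calls 157 had a positive and 2 a negative difference, and the median called difference was 0.078. With each called exon taken by its event of lowest FDR, the largest differences in size, 1 per gene, were 0.729 in TRAK2 and 0.474 in TRAK1 (FDR 0.0835), adaptors that link mitochondria to motor proteins, 0.655 in USP30, a deubiquitinase of the outer membrane, 0.568 in SENP5, a SUMO protease, and 0.540 in DNAJC19 (FDR 0.00065), an inner membrane protein. The FDR was listed as 0 for TRAK2, USP30 and SENP5. The 2 negative calls were in SENP5 (-0.177, FDR 0.0044) and YME1L1 (-0.478, FDR 0.0981), a protease that cleaves OPA1. The YME1L1 event was larger in size than the value of TRAK1, but the event of lowest FDR of that exon gave 0.033 (FDR 4.2e-05).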

How the data were processed

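RNA-seq of polyadenylated RNA from 1 Ctrl and 1 amiloride library of HEK293T cells was processed by the authors with rMATS, and 5 tables were deposited on hg19 (GRCh37). The submitters' processing notes list STAR 2.5.1. The rMATS version and annotation are not given in the sources used here. The p-value and FDR of each event, and the inclusion level difference, are columns of the authors' own comparison, and they were used as the authors deposited them because the tables hold no other named measurement. Adjusting the p-values again by Benjamini-Hochberg gave the FDR column back to within 5.0e-13. Library numbers in the tables carry no condition, so 30 columns of reads or levels per library were not used in any step, and depth per library is not reported. No test was run here. Precision is therefore limited to the FDR of rMATS, which covers counting error in these 2 libraries.

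In all 101 skipped-exon events the inclusion form was longer than the skipping form by the exon's own length, so reads on the exon body counted for inclusion. In mutually exclusive events the inclusion form held the first exon.

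Exons were numbered along the canonical transcripts of GENCODE release 44 lifted to GRCh37. Chromosome names and lengths were checked against GRCh37. Not every exon's sequence is reported here. A skipping junction was annotated when any GENCODE transcript held it. Splice site scores add up, over positions, the log2 ratio of each base's frequency among 300873 annotated 5'SS (9 bases, of which 3 in the exon) and 300290 annotated 3'SS (23 bases, of which 20 in the intron) to equal frequencies, with a pseudocount of 0.5. The scoring and counting were tested on simulated data.

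The genes, the list of 63 symbols and the exons named were chosen with earlier results of these data known. Named were all called exons of the 5 genes by their event of lowest FDR, OPA1 exon 12, the exons of OPA1, MFF and DNM1L that some transcripts leave out, and the 5 listed other genes with the largest called difference. Other exons and events were named after their values were seen. Alternatives were a minimum difference of 0.1 in size, FDR cutoffs of 0.05 and 0.01, exons flanked by AG and GT, exons with exactly 1 event, and exons with every event called. Python 3.11.15, numpy 2.4.6, pandas 2.3.3, statsmodels 0.14.6, pysam 0.24.0 and matplotlib 3.10.9 were used.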

Additional observations from a re-analysis of the deposited data

How the results depend on the processing

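With a minimum size of 0.1 for the difference, the called skipped-exon events of the 5 genes went from 35 to 16, all still positive, called exons from 25 to 14, called mutually exclusive events from 15 to 4, and called exons of the other mitochondrial shape genes from 123 to 50. By gene, called exons went from 5 to 2 in DNM1L, from 1 to 0 in MFN1 and from 7 to 3 in MFN2. Over the whole table the same minimum left 14.5% of skipped-exon events, 20.4% of exons and 14.8% of mutually exclusive events called. Among exons with exactly 1 event, 11 events and 11 exons were called, all positive, which is 30.6% of such exons against 25.3% over the whole table. When every event of an exon had to be called, 16 exons of the 5 genes and 59 of the other genes were called, against 19.3% of all exons. These settings call fewer by construction. At an FDR under 0.05 and under 0.01 each of these counts stayed within 1.5 times its value, with 33 and 27 called events of the 5 genes where the whole table had 24.5% and 19.9% of its events called, and with exons flanked by AG and GT only the counts were 35 events and 25 exons. Of the 25 called exons, 2 passed no longer at 0.01. No paired analysis was possible because Ctrl and amiloride were each sequenced as a single library, and leaving out a replicate was not possible for the same reason. The depth of the libraries was not used, so an event that was not called may have had too few reads.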
